A study of Mus musculus with 2 samples.

Results

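The collagen genes are the 42 protein-coding genes of chromosomes 1 to 19 in GENCODE vM21 whose symbol is Col, a number, the letter a and a number, out of 20807 protein-coding genes on these chromosomes. They were chosen by name alone, and all 42 were kept. CTCF binding was measured at them by chromatin immunoprecipitation followed by sequencing (ChIP-seq) in the midbrain of newborn B6NCrl mice (postnatal day 0). There was 1 group of 2 replicates, and the labels tie both to a single tissue sample and donor record, with the sex not collected. Their spread can therefore be purely technical. With no second group there is no comparison between conditions and no test of one. Counts at collagen genes are set beside the same counts over all protein-coding genes where these were made. Peak lists hold no expression values, so the tissue label could not be checked against marker genes. The tissue was taken whole, so a peak in a few cells and a weak peak in many cells cannot be told apart.

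Collagens are secreted or membrane proteins built from chains that wind into a triple helix. Some assemble into fibrils, some into the sheets of basement membranes, and others decorate fibrils or stay anchored in the plasma membrane. In the brain they are known mainly from the meninges and the walls of blood vessels, and a few are made by neurons. The type IV collagen genes lie head to head, so that the genes of a pair are transcribed in opposite directions from a shared start region. CTCF contacts DNA through an array of zinc fingers at a long motif that has a direction, and that direction matters for the chromatin loops it anchors together with cohesin.

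The optimal list, which the authors thresholded by the irreproducible discovery rate (IDR, a measure of how well peak ranks repeat), held 68603 peaks, of which 66972 lay on chromosomes 1 to 19. Of these, 278 had their summit in a collagen gene or within 20 kb of one. Their signal, a value per peak that is the authors' own and whose scale is not given in the sources used here, ran from 9.10 to 637, with a median of 90.01 (middle 50% from 38.2 to 255.7). The median was 76.2 over all optimal peaks of the same chromosomes (middle 50% from 38.5 to 212). The lists carry no read depth, and the intervals below are 95% Wilson intervals, which cover counting error only, and peaks or genes are not independent replicates. Where no peak was listed at a gene, that does not show that CTCF was absent.

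The CTCF sites that the results below turn on are shown first, each with 5 bases on both sides in lower case and the match to the CTCF motif in capitals, 5′ to 3′ on the strand of the motif, in mm10. Introns and exons are numbered in the transcript of longest coding sequence. The first set is the motif at the promoter peaks, the peaks within 1 kb of an annotated collagen transcript start, that held one. Its 8 sites are shown because they are the only promoter peaks of collagen genes with a match.
Col26a1, chr5:136755891-136755910, minus strand: aggcaTGGCCAGCAGGTGGCAGACAcaccc
Col1a1, intron 6, chr11:94939462-94939481, plus strand: atggtGAGCCACCAGGGGGAGCAGTgacca
Col13a1, chr10:61877988-61878007, plus strand: ctctgTGGCCAGCAGAGGGCGCAGGaggac
Col27a1, chr4:63215296-63215315, plus strand: tgctgCGTCCGGCAGGGGGCAGCAGttggc
Col1a1, intron 1, chr11:94937171-94937190, minus strand: caaggCAACCACTAGGTGGCGGGCAaaact
Col11a1, chr3:114147327-114147346, plus strand: gtcgaTGACCACTAGAGGACACTAGctttc
Col6a2, chr10:76623434-76623453, plus strand: aaactCGACCGCTGGGGGGCGCTGCggccc
Col5a1, chr2:27887328-27887347, minus strand: tggccTTGACTCTAGGGGGCGGCCCtttcc

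The second set is the motif at the 5 strongest peaks of all 278.
Col18a1, chr10:77130732-77130751, plus strand: ggtgcTGGCCACCAGAGGGAGCCATagatc
Col8a2, chr4:126321743-126321762, minus strand: actccGGGCCACAAGGGGGCGCTGTggggc
Col22a1, chr15:71917792-71917811, plus strand: gattaTGACCACTGGAGGGCGATAAgaaac
Col16a1, chr4:130087528-130087547, minus strand: gccatTGACCAGGAGGGGTCAGCACagttc
Col26a1, intron 3, chr5:136790990-136791009, plus strand: acatcCGTCCAGCAGGTGGCAGCCAcgcac

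The third set lies in the type IV genes, on either side of their shared starts, and is shown for the direction of its motifs.
Col4a1, chr8:11253678-11253697, plus strand: tagtcTGGCCACCAGGGGGAGAGCTtggtc
Col4a2, chr8:11392972-11392991, minus strand: agtagCCAACACCAGGTGGCAGTCAttctc
Col4a4, chr1:82554526-82554545, plus strand: agaagACGCCACTAGGTGGCACTGCaatat
Col4a3, chr1:82641861-82641880, minus strand: caattTCGCCACCAGGGGGCGGTCTtgttc

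Promoter peaks were present at 17 of 42 collagen genes (40.5%, interval 27.0 to 55.5), against 44.2% of all protein-coding genes, a share near the background. Within 5 kb of a start the order was turned, with a peak at 35 of 42 collagen genes (83.3%, 69.4 to 91.7), against 62.4% of all protein-coding genes. This wider window was not split by gene length or by number of starts. Within 1 kb of the outermost start of the gene a peak was listed at 8 of 42 collagen genes (19.05%, 9.98 to 33.3), against 36.0% of all protein-coding genes. The 8 genes were Col1a1, Col5a1, Col6a2, Col11a2, Col12a1, Col15a1, Col19a1 and Col23a1. The other 9 genes owed their promoter peak to a start inside the gene. Of the 26 promoter peaks, 11 had their nearest start at a transcript annotated as protein_coding (42.3%), 8 at a retained_intron transcript and 7 at a processed_transcript. These types were not counted for promoter peaks of other genes, so they cannot be read as a collagen trait. With starts of protein_coding transcripts alone the count was 12 of 42 (28.6%, 17.2 to 43.6), against 40.6% of all protein-coding genes. That background lay within the interval.

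Collagen genes are long, with a median of 111 kb (range 7.11 to 468), against 17.6 kb over all protein-coding genes, and longer genes had a promoter peak more often. Among the 24 collagen genes of 100 kb or more, 10 had a promoter peak (41.7%), against 65.6% of all protein-coding genes of that length. At the outermost start the counts were 5 of 24 (20.8%, 9.24 to 40.5), against 49.4%. Among the 18 shorter collagen genes, 7 had a promoter peak (38.9%), against 41.4%, and 3 had one at the outermost start (16.7%, 5.84 to 39.2), against 34.3%. The collagen share at the outermost start was thus below the background in both length classes, and the upper end of its interval lay below the background only for the longer genes.

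Counts by collagen class follow, and over all protein-coding genes 44.2% had a promoter peak. The classes are small and were not split by gene length, so their counts describe the named genes only. The fibril-forming collagens had promoter peaks at 7 of 11 genes. Col1a1, which encodes the main chain of type I collagen in skin, bone and meninges, had 3. The peak in intron 6, 3250 bp from the outermost start, had a signal of 411 (217 in replicate 1 and 190.4 in replicate 2). A peak in intron 1, 943 bp from the outermost start, had 376 (196 in replicate 1 and 179 in replicate 2). The third, in intron 26, was weak at 39.1. The motifs of the stronger peaks point away from each other, the intron 1 motif being on the strand opposite to the gene and the intron 6 motif on its strand. Col1a2, the partner chain of type I collagen, had only a peak of 62.4 in intron 1 (36.3 in replicate 1 and 24.9 in replicate 2), with no motif match.

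Col27a1, a fibrillar collagen of cartilage, had a peak of 386 (219.8 in replicate 1 and 165 in replicate 2), 105 bp upstream of the start of a retained_intron transcript and 1303 bp into the gene. A further peak of 152 lay 710 bp inside a protein_coding start. Col11a1, whose chain belongs to the type XI fibrils of cartilage, had 1 of 330 (175 in replicate 1 and 154 in replicate 2), but at the start of a retained_intron transcript 116802 bp into the gene. Col5a1, whose chain starts the growth of type I fibrils, had a peak on each side of its outermost start. The upstream one, at 474 bp, had a signal of 78.3, and the one 906 bp inside had 145 and a motif. Col11a2 (52.0, 164 bp upstream of its outermost start) and Col2a1, the cartilage collagen gene (38.1), had weak promoter peaks. Col3a1, Col5a2, Col5a3 and Col24a1 had none. The only peak of the Col3a1 locus, of signal 311, lay in intron 1, 2601 bp from the outermost start of this gene of vessel walls and meninges.

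Of the genes of fibril-associated collagens, which sit on the surface of fibrils, 4 of 9 had a promoter peak, with signals of 40.3 to 111. Col9a1 had 111 (55.7 in replicate 1 and 53.2 in replicate 2) at a distance of 999 bp from an internal start, the member closest to the limit of 1 kb from within. Col9a2, which like Col9a1 encodes a chain on cartilage fibrils, had 61.7. Col19a1, a gene known in mice for its part in synapse formation by hippocampal neurons, had peaks of 41.3 and 40.3. Col12a1, whose product binds type I fibrils, had 42.1, with 30.6 in replicate 1 and 4.74 in replicate 2. Among the 273 collagen peaks listed in both replicates no other differed by as large a factor, and this one was absent from the conservative list. Col9a3, Col14a1, Col16a1, Col20a1 and Col22a1 had none.

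The transmembrane collagens had promoter peaks at 3 of 4 genes. Col23a1 had the strongest promoter peak of any collagen gene, with a signal of 463 (246 in replicate 1 and 217 in replicate 2). Its summit lay 293 bp upstream of the outermost start, and no motif match was found within 50 bp of the summit at the threshold used. A second peak of 101.4 lay in exon 1. Col13a1, a gene of the neuromuscular junction, had 3, the strongest of 400.1 (207 in replicate 1 and 195 in replicate 2) in intron 18 at the start of a processed_transcript. Col25a1, whose product was first found in amyloid plaques, had 62.5, and Col17a1, a gene of epithelial attachment, had none.

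Among the remaining groups, the beaded-filament type VI genes had a promoter peak at 1 of 6. That was Col6a2, with a signal of 186 (106 in replicate 1 and 78.7 in replicate 2) in exon 1, 184 bp from the outermost start. Col6a1, Col6a3, Col6a4, Col6a5 and Col6a6 had none. Col15a1 had a peak of 64.2 and Col18a1, whose product carries the endostatin fragment, had none. Col26a1 had peaks of 439 (231 in replicate 1 and 208 in replicate 2) and 79.6, both at internal starts, and Col7a1 and Col28a1 had none. None of the 7 genes of network-forming collagens, Col4a1, Col4a2, Col4a3, Col4a4, Col8a1, Col8a2 and Col10a1, had a promoter peak.

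**Figure D1:**
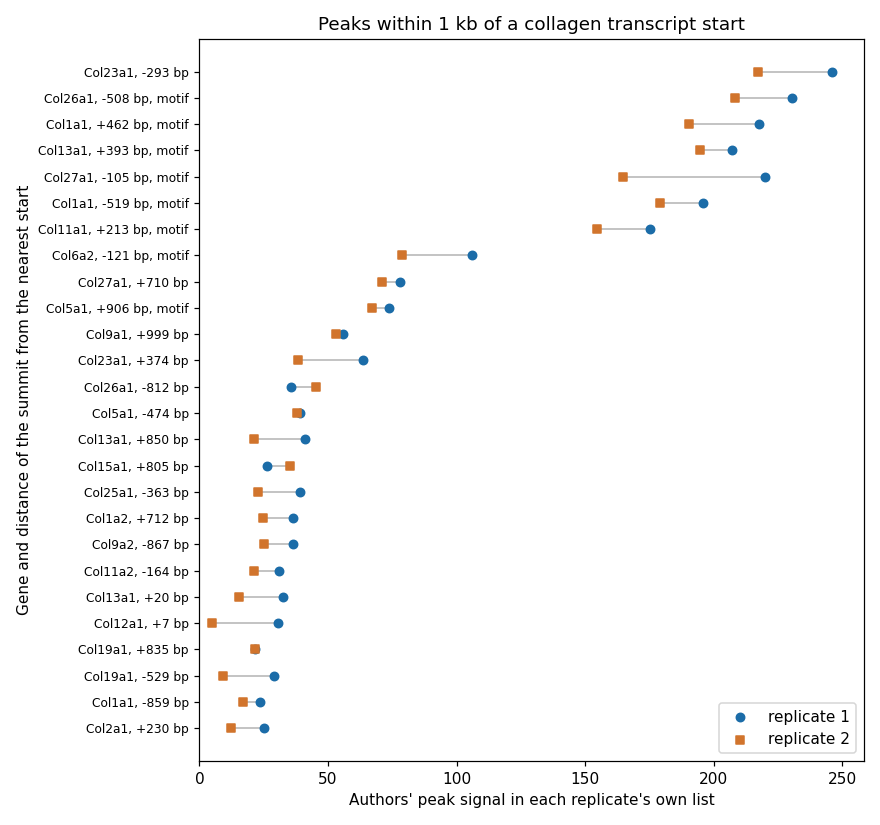
Peaks within 1 kb of a collagen transcript start, 1 row per peak, with the authors' signal in each replicate's own list on the horizontal axis; labels give the gene, the distance in bp of the summit from the nearest start (positive in the direction of transcription) and whether a motif match was found. The 7 strongest peaks stand apart from the others in both replicates, and Col12a1 shows the widest relative gap between replicates.

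The 25 collagen genes without a promoter peak differed in how far away the nearest peak was. It lay just outside the limit at Col4a2 (1134 bp from an internal start), Col6a3 (1143 bp), Col17a1 (1220 bp) and Col14a1 (1282 bp). At the other end were Col10a1 (9480 bp), Col4a4 (10420 bp), Col4a3 (10549 bp) and Col6a5 (23797 bp). The nearest peak was within 5 kb of a start for 18 of the 25 genes (72.0%, interval 52.4 to 85.7). The matching share was not counted for other genes lacking a promoter peak. Over all protein-coding genes, the wider window raised the share with a peak from 44.2% to 62.4%, and over all 42 collagen genes from 40.5% to 83.3%. The part of gene length in the count of 18 was not tested. For 10 of the 25 genes (40.0%), the list called on both replicates together and each replicate's own list all held a peak within 1 kb of a start, against 40.5% of all protein-coding genes without an optimal promoter peak. These lists include many weak peaks, and the collagen share did not stand apart from the background.

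Both head-to-head collagen pairs of these chromosomes belong to type IV, the sheet-forming collagen of basement membranes. Neither had a peak within 1 kb of the shared start region, against 59.7% of 1170 head-to-head protein-coding pairs (interval 56.8 to 62.4). Within 5 kb the count was still 0 of 2, against 73.7% of all such pairs. The outermost starts of Col4a4 and Col4a3 are 72 bp apart, and the nearest peak, of signal 28.6, lay 10477 bp away in Col4a4. The outermost starts of Col4a1 and Col4a2 overlap by 21 bp, with the nearest peak, of signal 30.5, at 30203 bp in Col4a1. No motif match at the threshold used was found in either start region with 1 kb on each side. With 2 pairs these counts describe the pairs only. The spacer between the outermost starts of Col4a4 and Col4a3 is printed in lower case as it holds no motif match; it has 71 bases, a GC content of 69.0% and 2 CpG dinucleotides.
Col4a4 and Col4a3 spacer, chr1:82586850-82586920, plus strand: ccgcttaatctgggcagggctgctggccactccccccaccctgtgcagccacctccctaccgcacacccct

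Farther from the shared starts both pairs held strong peaks. In Col4a1 the strongest was in intron 2, 59138 bp from its start, with a signal of 446 (229.9 in replicate 1 and 215 in replicate 2). In Col4a2 it was in intron 4, 80179 bp from its start, with 412 (214 in replicate 1 and 201 in replicate 2). Their motifs, printed above, point towards each other across the shared start. In the other pair the peak in intron 4 of Col4a4 had 257 (129 in replicate 1 and 128 in replicate 2), and the only peak inside Col4a3 had 455 (238 in replicate 1 and 219 in replicate 2), again with motifs pointing towards each other. These peaks were picked for their direction after their values were seen. A stronger peak in Col4a4, of 414, had no motif match. Taking the nearest motif peak on each side of the shared start, whatever its signal, gave a convergent order for Col4a4 and Col4a3 and the same direction on both sides for Col4a1 and Col4a2. That order was convergent at 21.5% of the 1170 head-to-head pairs.

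Col4a2 was the denser gene of its pair, with 12 peaks in its body, against 4 in Col4a1. Between intron 11 and intron 29 of Col4a2 there were 7 peaks, with signals of 20.3 to 364. Col4a4 held 4 peaks and Col4a3 held 1, in genes of similar length.

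**Figure D2:**
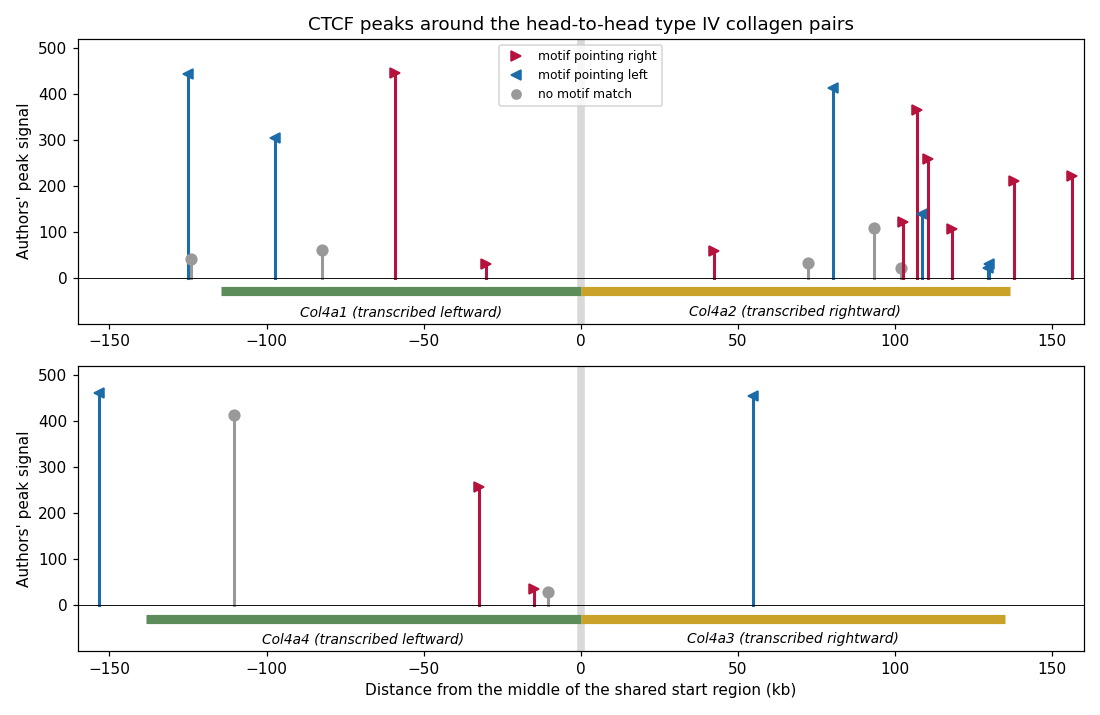
Peaks around the head-to-head type IV pairs, with the authors' peak signal on the vertical axis and the distance from the middle of the shared start region in kb on the horizontal axis; triangles give the direction of the motif, grey circles mark peaks without a match, bars below 0 are the genes and the grey band is 1 kb on each side. No peak falls in either band, and the peaks of 446 and 412 stand far outside it.

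Every collagen gene had at least 1 peak in its body or within 20 kb (42 of 42), against 83.9% of all protein-coding genes. A peak in the body itself was listed for 40 of 42 (95.2%), against 57.2%, the exceptions being Col10a1 and Col6a1. Length bears on this. All 24 collagen genes of 100 kb or more held a body peak, but so did 96.6% of all protein-coding genes of that length. Per 100 kb of gene plus flanks, the collagen median was 4.26 peaks (range 0.692 to 13.3), against 4.66 over all protein-coding genes. Without flanks the order was turned, at 3.54 for collagen genes and 2.26 for all, as it was in the stronger 50% of the list, at 2.51 and 2.22. For genes of 100 kb or more both medians were 3.18, and for shorter genes they were 6.06 for collagen genes and 4.98 for all.

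The density varied widely among collagen genes of like length. Above 10 peaks per 100 kb stood 5 short genes, Col8a2 (13.3), Col9a2 (12.5), Col11a2 (11.9), Col9a3 (10.9) and Col1a1 (10.6), where the 20 kb flanks make up most of the locus. Of the long genes Col18a1 (8.42), Col4a2 (7.93) and Col5a1 (7.77) were the densest. At the other end, Col6a5 (0.692), Col3a1 (1.28), Col11a1 (1.30) and Col6a2 (1.47) were the sparsest. Col5a1 and Col11a1, both fibril-forming and of 153 and 190.2 kb, held 14 and 3 body peaks. Col23a1, at 294 kb, and Col25a1, at 468 kb, held 12 each. The 3 peaks of Col11a1 were all strong, with signals of 217 to 330, whereas those of the Col5a1 locus ran from 16.2 to 366.

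**Figure D3:**
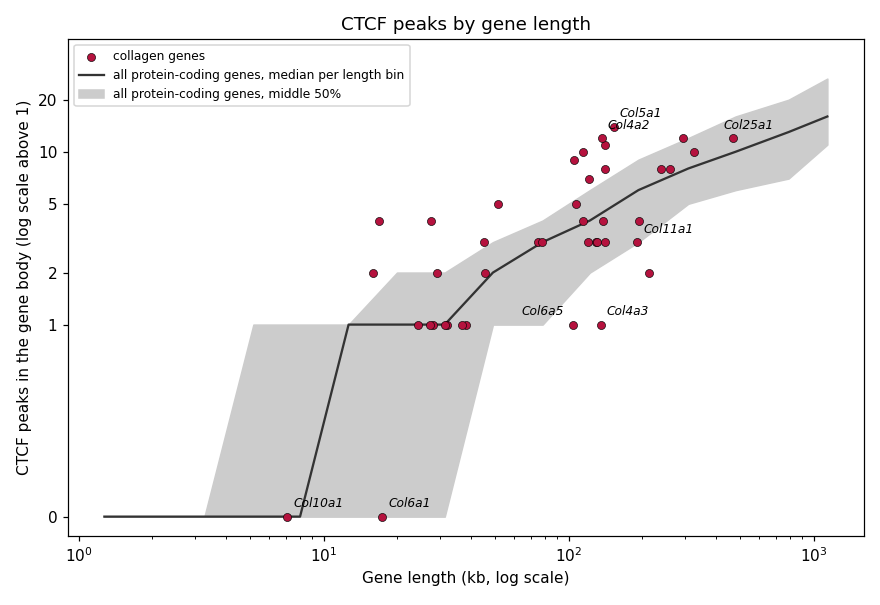
Number of CTCF peaks in the gene body (log scale above 1) against gene length (kb, log scale), with a point per collagen gene and, for all protein-coding genes, the median per length bin as a line and the middle 50% as a grey band. Col5a1, with 14 peaks, lies above the band and Col4a3 and Col6a5, with 1 each, lie below it.

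The strongest peak of a collagen locus was inside the gene for 25 of 42 genes and held a motif match for 37. It exceeded a signal of 300 at 30 genes. These counts were not made for other genes, so they cannot be read as traits of collagen loci. Over all peaks, those with a match had the higher median signal (134, against 50.1 without). The highest value, 637 (311 in replicate 1 and 328 in replicate 2), belonged to an intronic peak of Col18a1, 35791 bp from the outermost start. This locus held a further peak of 502 in intron 5. Col8a2, a gene of the membrane beneath the corneal endothelium, was next with 590 (300.03 in replicate 1 and 290 in replicate 2), but that peak lay downstream of the gene, within 1 kb of a start of Adprhl2. Col22a1, a gene of tissue junctions, followed with 542 in intron 23 (288 in replicate 1 and 254 in replicate 2). Col16a1 had 530 in intron 55 (259.9 in replicate 1 and 271 in replicate 2), and Col26a1 had 518 in intron 3 (276 in replicate 1 and 245 in replicate 2). In each of these 5 the motif lay on the strand opposite to the gene, which was noticed after their values were seen.

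Next in order came a peak of 503 in intron 37 of Col9a1, 71707 bp from its start, which was also within 20 kb of the end of Col19a1. These genes lie end to end, with transcription running towards each other. Col13a1 held 483 in intron 40, Col23a1 the promoter peak of 463, and Col4a4 a peak of 462 downstream of its end. The strongest peak of Col14a1, of 437, lay 1282 bp upstream of its outermost start. The weakest of the strongest peaks was the only one of Col10a1, the gene of growth plate cartilage, at 40.3. Of all 278 peaks, 40 were among the strongest 10% of optimal peaks (14.4%).

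**Figure D4:**
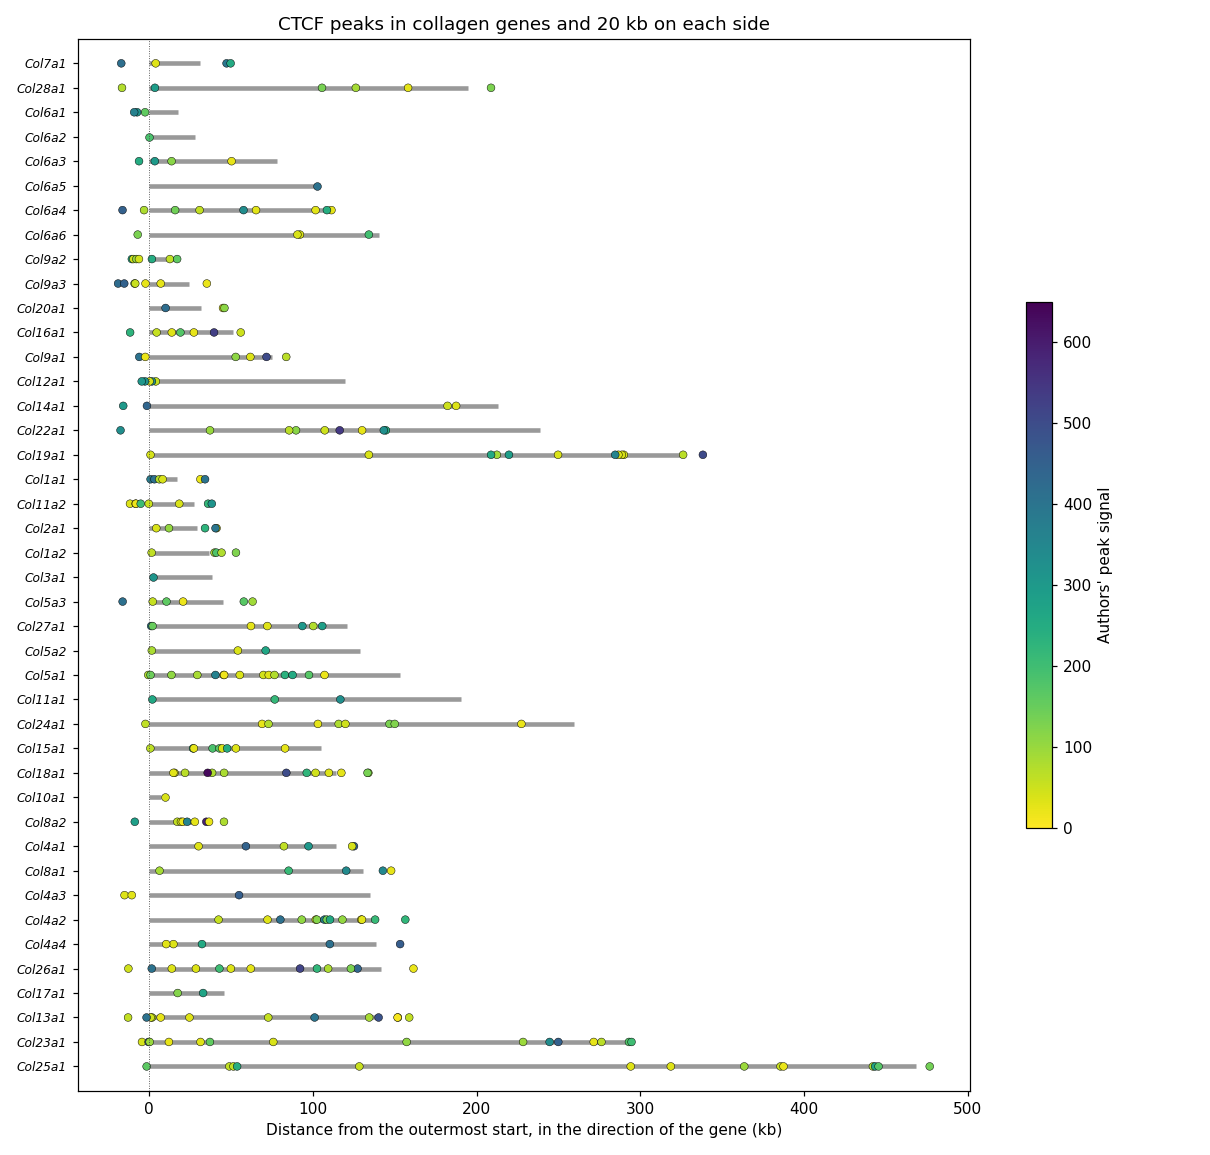
Optimal CTCF peaks in each collagen gene and 20 kb on each side, drawn as points coloured by the authors' signal along the gene (grey bar), with the distance from the outermost start in kb on the horizontal axis and genes grouped by class. Peaks are spread along the long genes; Col5a1 and Col4a2 hold 14 and 12 inside the gene while Col11a1 holds 3 and Col6a5 holds 1.

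Within gene bodies, 179 of 192 collagen peaks (93.2%, 88.8 to 96.0) lay in an intron, against 81.5% of gene and peak pairs over all protein-coding genes. Coding exons held 4 of 192 (2.08%, 0.813 to 5.23), against 6.48% of peaks in protein-coding gene bodies. For genes of 100 kb or more the intron shares were 94.9% for collagen genes and 92.2% for all. The coding exon shares were 0.637% (1 of 157 peaks, 0.113 to 3.52) and 2.41%. The differences in percentage points were thus smaller among these longer genes, but the coding exon shares were no closer as a ratio. The coding exon share of the longer collagen genes rests on 1 peak, and the background lay within its interval. Genes under 100 kb were not counted apart, so the part of gene length in the pooled shares was not tested. The 4 coding exon peaks were in exon 2 of Col6a3 (signal 115), exon 26 (30.8) and exon 33 (174) of Col16a1, and exon 1 of Col23a1 (101.4). Only the one in exon 33 of Col16a1 held a motif match. First introns held 24 of 170 intronic peaks that could be numbered (14.1%), and 14.0% of the intron length of the same transcripts.

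A CTCF motif match within 50 bp of the summit was found at 163 of 278 collagen peaks (58.6%, 52.8 to 64.3), against 53.6% of optimal peaks on these chromosomes and 0.767% of windows 1 kb away from summits. The background lay within the interval here, but below it in the conservative list (62.5%, 56.4 to 68.2, against 54.6%) and in the stronger 50% of the optimal list (77.1%, 69.9 to 83.1, against 68.8%). It also lay below it without replicate 1 (59.6% against 52.9%), without replicate 2 (61.4% against 53.3%) and with flanks of 50 kb (60.9% against 53.6%). For peaks inside collagen gene bodies alone the background lay within the interval (58.3%, 51.3 to 65.1, against 53.6%). At a looser motif threshold of 1e-04 the shares were 75.2% for collagen peaks and 75.2% for all, and at a stricter one of 1e-06 they were 30.6% and 25.8%, inside the interval both times. Collagen peaks also had the higher median signal, at 90.01 against 76.2, and the part of signal in these shares was not tested. Promoter peaks held a match less often in both sets, 8 of 26 at collagen genes (30.8%, 16.5 to 49.99) and 27.8% at all protein-coding genes. Collagen peaks with a match had a median signal of 177, against 41.3 for those without, and over all peaks the medians were 134 and 50.1. Of the 8 promoter peaks with a match, the 6 in Col26a1, Col1a1, Col13a1, Col27a1 and Col11a1 all had signals above 300. Each of these had an internal start as its nearest, although the Col1a1 peak in intron 1 was also within 1 kb of the outermost start.

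The direction of motifs did not follow the direction of transcription. In collagen gene bodies 59 of 112 motifs were on the strand of the gene (52.7%, 43.5 to 61.7), against 49.7% in all protein-coding genes. Neighbouring motif peaks of a collagen locus pointed towards each other in 32 of 124 cases (25.8%, 18.9 to 34.2), against 23.9% over these chromosomes. They pointed away from each other in 29 cases (23.4%), against 23.9%, and in the same direction in 63 (50.8%), against 52.2%.

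Both replicates listed a summit within 100 bp for 273 of 278 collagen peaks (98.2%, 95.9 to 99.2), against 97.8% of all optimal peaks on these chromosomes. Across these peaks, which share their libraries and are not independent, Spearman's rho between the replicates' signals was 0.958 for collagen peaks and 0.948 for all. The optimal list was itself thresholded by IDR from both replicates, and each replicate's own list held 300000 peaks. High shares and high rho were thus built into the choice of peaks and are no independent check of agreement. The log2 ratio of replicate 1 to replicate 2, taken about the median of all peaks, had an SD of 0.48 over collagen peaks and 0.46 over all. It was within 2-fold of the median for 94.1% of collagen peaks and 94.8% of all. The peaks most in excess in replicate 1 were at Col12a1 (log2 ratio 2.39), in intron 2 of Col15a1 (1.75) and in intron 41 of Col4a2 (1.74). Those most in excess in replicate 2 were in intron 4 of Col4a2 (-1.39) and downstream of Col9a3 (-1.28) and Col2a1 (-1.11). All 6 had signals of 42.1 or less in the optimal list.

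**Figure D5:**
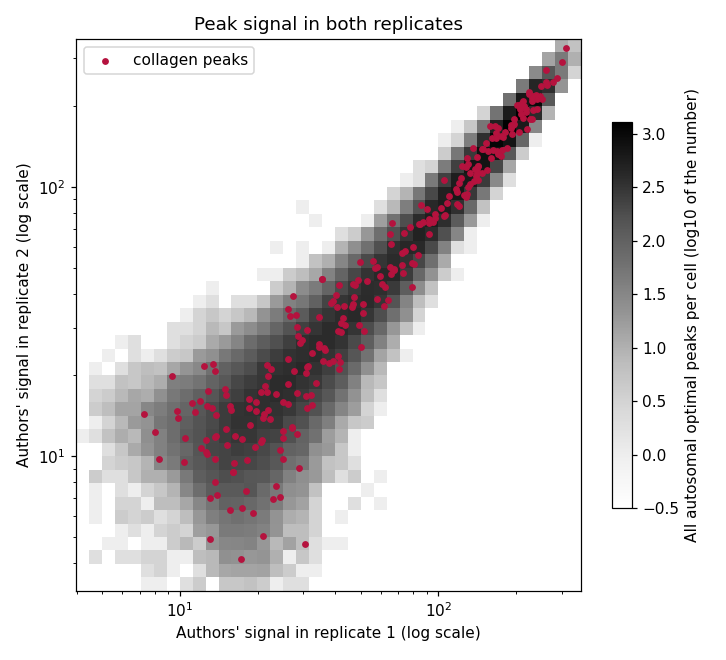
Authors' signal of each collagen peak in replicate 1 (horizontal) and replicate 2 (vertical), both on log scales, over the density of all optimal peaks of chromosomes 1 to 19 in grey. Collagen peaks follow the diagonal band of all peaks (Spearman's rho 0.958), with more scatter among weak peaks.

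Genes of the collagen pathway were taken from lists by role. Of 60 such genes 33 had a promoter peak (55.0%, 42.5 to 66.9), against 44.2% of all protein-coding genes. For the enzymes and chaperones that modify, fold and export collagen the count was 17 of 24 (70.8%). The strongest were at P3h3 (signal 347), a member of the prolyl 3-hydroxylase family, P4ha1 (338), which hydroxylates prolines so that the helix is stable, Fkbp14 (296), a folding enzyme, and Mia3 (294), an export receptor. Serpinh1, the collagen chaperone, had a weak one (22.4), and P4hb and Crtap had none. For propeptide processing, cross-linking and fibril partners it was 9 of 23 (39.1%). Mmp9, a matrix protease gene, led with 427, followed by Bmp1 (265), whose product trims procollagen, Mmp14 (147) and Tll1 (99.6). For collagen receptors it was 7 of 13 (53.8%), with Adgrg1, a receptor of type III collagen in the developing brain, at 460, the integrin gene Itgb1 at 279, Itga10 at 155 and Lair1 at 137. No peak was listed in the body or within 20 kb of 3 of the 60 genes, the receptor genes Ddr2 and Gp6 and the gene of the fibril partner decorin, Dcn. Over all protein-coding genes 83.9% had such a peak, so the pathway genes did not lack one more often.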

How the data were processed

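Peak lists of CTCF ChIP-seq from 2 replicates were used as the authors deposited them, on mm10 per the deposited text notes. The notes list 1 list per replicate, 1 on both replicates together and 2 thresholded by IDR. Peak caller, aligner, depth and the cut on IDR were not given in these sources. Column 7 of each list is a signal value the authors deposited, with no stated scale. Summits are column 2 plus column 10, written 1-based. Gene starts came from all transcripts of GENCODE vM21 and sequence from GRCm38.p6. CTCF matrices of 20 bp were learned from the 2000 strongest optimal peaks of odd- or even-numbered chromosomes and applied to the others at a per-position p of 1e-05 with equal base frequencies; the learner was tested on simulated data. Replicate summits were matched within 100 bp. Members were picked by name and pathway genes by role. These rules, the lists and the comparisons were still chosen with earlier results of these data known, and no test was made. Named were all members, the strongest peaks, the head-to-head pairs, the most discordant peaks and up to 4 pathway genes per list with the strongest promoter peak; Serpinh1, P4hb, Crtap, Ddr2, Gp6 and Dcn were named after their values were seen. Of 61 pathway symbols 60 were matched on chromosomes 1 to 19. Alternatives were other lists, windows, starts, overlaps, motif thresholds and each replicate left out. Python 3.11.15, numpy 2.4.6, pandas 2.3.3, scipy 1.17.1 and pysam 0.24.0 were used.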

Additional observations from a re-analysis of the deposited data

How the results depend on the processing

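The conservative list left the count of collagen genes with a promoter peak at 16, against 42.6% of all protein-coding genes. It moved the median signal of collagen peaks to 108, above the 82.6 of all its peaks. In the stronger 50% of the optimal list a promoter peak was found at 9 collagen genes, against 23.6% of all protein-coding genes, and 153 peaks lay in collagen loci. There the median was 2.51 peaks per 100 kb, against 2.22 over all genes, and the median signal 243, against 212. The motif share was 77.1%, against 68.8%, and the share in both replicate lists 100%, against 99.9%. Of the 60 pathway genes 21 had a promoter peak, against 23.6% of all protein-coding genes. Promoter windows of 500 bp gave 11 collagen genes, against 36.5% of all genes. Windows of 5 kb gave 35 collagen genes and 50 pathway genes, against 62.4%. The collagen share thus passed from below to above the background, in genes of all lengths pooled. The outermost start gave 8 collagen genes, against 36.0% of all genes. This setting uses fewer starts, and the number of starts per gene was not compared between collagen and other genes. Without flanks the median was 3.54 peaks per 100 kb for collagen genes and 2.26 for all, and with 50 kb flanks 3.69 and 4.70. With genes of all lengths pooled, collagen density was thus above the background without flanks and in the stronger 50%, and below it in the other settings. Split by length in the main setting, it was not below the background. Both medians were 3.18 for genes of 100 kb or more, and shorter genes had 6.06, against 4.98 for all. The other settings were not split by length. The motif share was 75.2% at a p of 1e-04, against 75.2%, and 30.6% at 1e-06, against 25.8%. The causes of these changes were not tested. Matching within 50 bp put 95.7% of collagen peaks in both replicate lists, against 95.2% of all peaks. Leaving out a replicate meant using the other's own strongest peaks, which carry that list's signal scale. The median signal was then 43.5 to 57.2, the median density 4.03 to 4.44 peaks per 100 kb, and the count of collagen genes with a promoter peak stayed at 17. Neither the absence of a peak at the head-to-head pairs nor the side of the background on which the median signal lay changed under any alternative run for it. Starts of protein_coding transcripts alone, and leaving out peaks at promoters of other coding genes, were alternatives chosen after seeing the data. No paired analysis was possible because there is 1 group. Depth is unknown, so weak or missing peaks cannot be told from low coverage.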

Other observations

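The X-linked type IV pair, Col4a6 and Col4a5, lay outside the chromosomes analysed and is given as values only. The outermost starts of this pair, at chrX:141474076 and chrX:141475385, are also more than 1 kb apart. It would thus not meet the limit that defined the head-to-head pairs above. Neither gene had an optimal peak within 1 kb of a start. The nearest was 5421 bp from a start of Col4a6 and 32726 bp from one of Col4a5. Within 20 kb of the genes there were 5 peaks for Col4a6, the strongest of signal 244, and 2 for Col4a5, the strongest of 117. Per 100 kb this was 1.43 and 0.788 peaks, in genes of 309 and 214 kb.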
